A study of Mus musculus with 20 samples.

Results

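The glucocorticoid receptor gene, the gene for the enzyme that activates glucocorticoids inside cells and 7 classical receptor target genes were followed in mouse tibiae after repeated dexamethasone (DEX). The 9 genes were taken by symbol from the 54446 genes of the deposited table: Nr3c1, Hsd11b1, Fkbp5, Zbtb16, Tsc22d3, Per1, Klf9, Sgk1 and Dusp1. The question was which of these targets still stood above the vehicle level when the bones were collected. The animals of all groups were 3-month-old male C57BL/6J mice. The vehicle groups (Vehicle_Ctrl and Vehicle_Load) received injection water s.c. and the DEX groups (DEX_Ctrl and DEX_Load) received DEX s.c. at 1 mg/kg, in each case over 5 days. In each animal the left tibia was loaded axially in sessions of 40 cycles at -13 N (Load) and the right tibia was left unloaded (Ctrl). By the labels the sessions fell on days 1 and 3, while the published description gives 3 sessions a week, the last on day 5, with bones frozen 4 hours later, so the time from the last loading to collection is uncertain. There were 4 groups of 5 libraries of total RNA from pulverised tibia, and the study elsewhere calls the mouse tissue cortical bone with its periosteum. The hours between the last injection and collection, and which limbs came from the same mouse, were not given in the sources used here, so p-values measure the spread between these libraries.

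Total counts per library ranged from 4641437 to 13032018, and the lowest total belonged to loaded DEX replicate 4. The counts of the 9 genes in a library ranged from 131 to 1753, so each was measured well above the detection limit in all 20 libraries. Levels are given as CPM, counts scaled to a common library size, and genes are compared with each other only in CPM per kilobase of exon. The study removed DEX replicate 4 as an outlier without stating in the text which tibia was meant. The unloaded library was left out of the tests here, since 4 unloaded and 5 loaded DEX values are plotted in the study, and its values are still given. In each vehicle group 1 library carried a number that no label holds, and it is called the unnumbered library. The labelled tissue was checked on marker genes: all 8 osteoblast markers and all 5 osteocyte markers were detected in every library, as were markers of neutrophils, B cells, erythroid cells and skeletal muscle. Reads over 1965 olfactory and vomeronasal receptor genes, which bone is not known to use, served as a measure of background reads. They summed to 391 to 1364 CPM in unloaded vehicle, 261 to 932 CPM in loaded vehicle, 800.4 to 2918 CPM in unloaded DEX and 1097 to 6494 CPM in loaded DEX, where replicate 4 was highest. In pulverised bone, fewer cells of a type and less RNA per cell cannot be told apart.

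Glucocorticoids cross the cell membrane and bind a receptor that waits in the cytoplasm in a complex with heat shock proteins. The bound receptor moves to the nucleus, binds glucocorticoid response elements and raises genes of feedback, metabolism and the clock. Many direct targets respond within hours and return as the hormone is cleared. Hsd11b1 turns inactive 11-keto steroids into active ones, while Fkbp5 lowers the affinity of the receptor for hormone. In bone, glucocorticoids are known to suppress osteoblasts, and in blood and marrow they are known to raise neutrophils and deplete B cells.

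Promoter sequences are given for 3 of the genes, picked by their values below. Fkbp5 and Hsd11b1 stood above vehicle in loaded bone, and Sgk1 did not stand above vehicle in any comparison. Of 6 Sgk1 windows, only the window shown holds the full glucocorticoid response element. Which start is used in tibia was not tested, and a sequence by itself shows no DEX effect. The sequences were taken from RefSeq (GRCm38.p6) and run 5′ to 3′ from 250 bases before to 50 bases after a transcription start. Capitals mark matches to the letters searched on both strands: the full glucocorticoid response element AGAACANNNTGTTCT, its half-site AGAACA (which the full element also contains), the cAMP response element TGACGTCA and the E-box CACGTG, a site of clock factors.
Fkbp5, chr17:28486100-28486399, minus strand: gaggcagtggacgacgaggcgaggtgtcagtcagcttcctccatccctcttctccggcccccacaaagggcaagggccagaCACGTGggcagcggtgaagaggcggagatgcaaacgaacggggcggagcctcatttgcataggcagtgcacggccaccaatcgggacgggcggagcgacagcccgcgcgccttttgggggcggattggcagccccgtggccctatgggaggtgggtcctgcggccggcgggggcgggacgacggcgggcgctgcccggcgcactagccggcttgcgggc
Hsd11b1, chr1:193242311-193242610, minus strand: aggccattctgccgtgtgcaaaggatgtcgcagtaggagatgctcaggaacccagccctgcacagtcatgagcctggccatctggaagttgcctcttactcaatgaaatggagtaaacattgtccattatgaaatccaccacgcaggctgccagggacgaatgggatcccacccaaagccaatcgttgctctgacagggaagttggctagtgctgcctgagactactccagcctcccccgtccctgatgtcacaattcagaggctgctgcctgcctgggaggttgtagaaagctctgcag
Sgk1, chr10:21993640-21993939, plus strand, the fifth of 6 listed starts: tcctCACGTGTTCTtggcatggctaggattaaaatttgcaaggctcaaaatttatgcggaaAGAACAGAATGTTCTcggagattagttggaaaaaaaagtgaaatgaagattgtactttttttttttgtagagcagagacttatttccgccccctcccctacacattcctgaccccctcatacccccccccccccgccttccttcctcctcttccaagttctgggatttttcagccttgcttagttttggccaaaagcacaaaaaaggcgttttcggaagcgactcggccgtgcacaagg
Windows of 7 of the 9 genes were searched, and the full element was found in the Sgk1 window above, at -189 from the start. The full element stood in 3 of 32851 promoters of this length (0.00913%), so its absence from the other windows describes nearly all genes. The half-site stood in 19.0% of promoters, and among these genes in 3 of 6 Sgk1 starts and 1 of 3 Tsc22d3 starts. The E-box stood in 7.15% of promoters and was found in the windows of Fkbp5 at -169, Per1 at -166, Dusp1 at -126 and Sgk1, where it overlaps a half-site. The cAMP response element stood in 1.79% and was found for Dusp1 at -143. No entry was matched for Zbtb16, and none was used for Nr3c1.

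At the level of the whole set, DEX moved 1 of the 9 genes in unloaded tibiae and 3 of the 9 in loaded tibiae past an adjusted p of 0.05 (quasi-likelihood F test of edgeR, adjusted by Benjamini-Hochberg over all genes tested, called edgeR adjusted p from here on). In unloaded tibiae the gene was Sgk1, which fell, against 6.84% of all 19738 genes tested that passed in either direction, 2.86% higher and 3.99% lower. In loaded tibiae Hsd11b1, Fkbp5 and Zbtb16 rose, against 21.3% of 19780 genes in either direction, 12.9% higher and 8.35% lower. The median log2 fold change of the 9 genes was -0.14 in unloaded and 0.10 in loaded tibiae, beside 0.03 and 0.0040 over all genes tested. These shares and medians depended on the level of the genes. Of the 9 genes 8 lay in the best expressed of 3 equal parts of the genes tested, where 268 of 6579 genes were called higher and 449 lower in unloaded tibiae, with a median of -0.07, and 181 of 6593 higher and 1047 lower in loaded tibiae, with a median of -0.20. In the least expressed part, 1862 of 6594 genes were called higher in loaded tibiae and the median was 0.91. DESeq2's Wald test called 2 and 4 of the genes, adding Fkbp5 as higher in unloaded and Nr3c1 as lower in loaded tibiae, and it called 12.2% and 28.6% of all genes. With background reads as a covariate, 2 of the 9 were called in unloaded tibiae and 0 of the 9 in loaded tibiae by edgeR, where 2 had an unadjusted p under 0.05 and 31 genes in all were called, 0.157% against 13.5% in unloaded tibiae. Leaving out 1 library gave 129 (without unloaded DEX replicate 3) to 1867 called genes in unloaded tibiae against 1351, with 828, 830 and 530 without unloaded DEX replicate 2 and unloaded vehicle replicates 4 and 5, and it gave 2696 (without the unnumbered vehicle library) to 5822 in loaded tibiae against 4206. None of the 9 was called in unloaded tibiae without DEX replicate 2 or 3 or vehicle replicate 5.

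**Figure D1:**
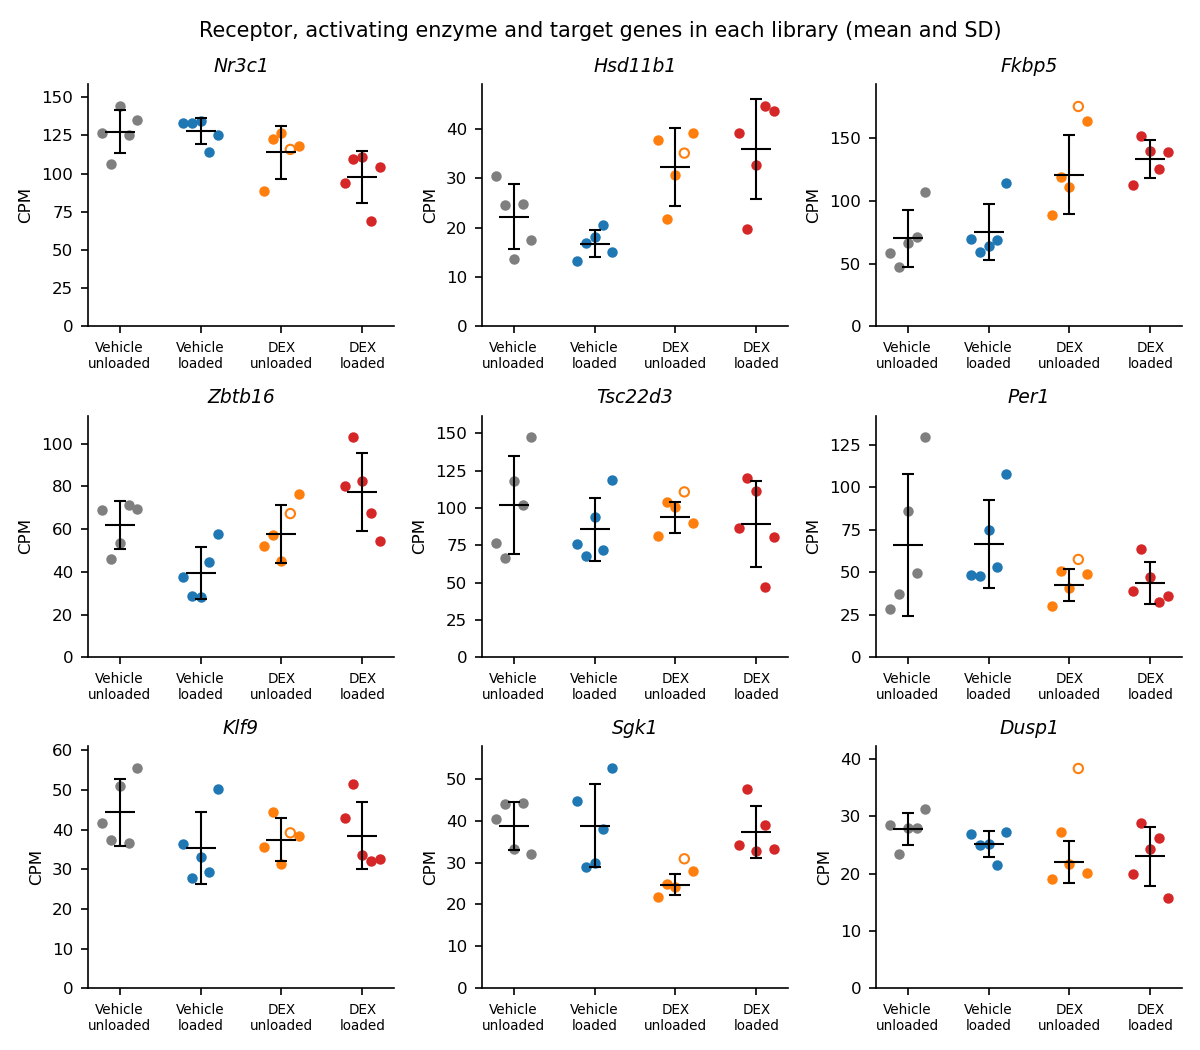
CPM of the 9 genes in each of the 20 libraries, by group, on axes that start at 0; dots are libraries, the open dot is the unloaded library of DEX replicate 4, and bars give the mean and SD without it. The group mean of Fkbp5 was higher in DEX on both sides, Zbtb16 was lowest in loaded vehicle, Sgk1 was lowest in unloaded DEX, and Per1 spread widely within the vehicle groups.

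The receptor itself, Nr3c1, was not raised. Its CPM was 127, 107, 144, 125 and 135 in unloaded vehicle and 133, 133, 135, 114 and 126 in loaded vehicle. It was 88.5, 123, 127 and 118 in the 4 tested unloaded DEX libraries, with 116 in the one left out, and 94.2, 109, 111, 69.3 and 104 in loaded DEX. Values overlapped in unloaded tibiae, while in loaded tibiae every DEX library lay below every vehicle library, a separation in one direction or the other that 16.5% of all genes tested there had. The log2 fold change was -0.14 ± 0.14 (SE; edgeR adjusted p = 0.570) in unloaded and -0.35 ± 0.14 (edgeR adjusted p = 0.0796) in loaded tibiae. With background reads as a covariate the loaded value was -0.06, and without loaded DEX replicate 4, the library lowest in Nr3c1 and highest in background reads, it was -0.26 (edgeR adjusted p = 0.0823). The loaded value was called in 2 of 19 alternatives, at -0.34 with DESeq2 (adjusted p = 0.0271) and at -0.43 in 1 model for all groups (edgeR adjusted p = 0.0275).

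The receptor's partners are given beside the 6.84% of all genes called in unloaded and the 21.3% called in loaded tibiae. Of 10 chaperones and cochaperones that fold the receptor and hold it ready, edgeR called 0 in either comparison, with 2 in unloaded and 1 in loaded tibiae at an unadjusted p under 0.05, and DESeq2 called 0 and 1. Their median log2 fold changes were -0.06 and -0.24, beside -0.07 and -0.20 in the best expressed part of all genes, in which all 10 lay. Of 9 receptor coregulators, edgeR called 0 in unloaded tibiae, with 1 at an unadjusted p under 0.05 and 0 by DESeq2. In loaded tibiae 1 was called, Smarca4, the ATPase of the BRG1 chromatin remodelling complex, which fell with a log2 fold change of -0.88 ± 0.21 (edgeR adjusted p = 0.0142). All 9 lay in the best expressed part of all genes, where 1047 of 6593 were called lower in loaded tibiae. Their median log2 fold changes were -0.06 and -0.23, near those of that part. Of 7 genes that supply, inactivate or export steroids, 6 were tested and Serpina6 was too low to test. None passed in unloaded tibiae by edgeR or DESeq2 (1 at an unadjusted p under 0.05). In loaded tibiae Abcb1a, a drug efflux pump that exports DEX, rose with a log2 fold change of 0.71 ± 0.22 (edgeR adjusted p = 0.0397). This was 1 of 6 genes, beside 12.9% of all genes called higher there. Of the 6, 3 lay in the middle part by level, where 511 of 6593 genes were called higher. Another 2 lay in the least expressed part, where 1862 of 6594 were. For none of the 6 did the values of the loaded groups separate fully.

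Hsd11b1, the activating enzyme (chr1:193221634-193264075, minus strand, by the GENCODE annotation of GRCm38, as for the genes below), rose with DEX in loaded tibiae. Its CPM was 13.2, 16.9, 18.0, 20.6 and 15.1 in loaded vehicle and 39.2, 19.8, 32.7, 44.6 and 43.6 in loaded DEX. Of 5 loaded DEX libraries, 4 lay above every vehicle library and replicate 2 lay within the vehicle range. The mean rose from 16.8 ± 2.80 to 36.0 ± 10.2 CPM (SD, n = 5 each), a log2 fold change of 1.15 ± 0.21 (SE; 95% confidence interval 0.69 to 1.61; edgeR adjusted p = 0.00550). In unloaded tibiae the vehicle values were 30.5, 24.5, 13.7, 24.9 and 17.5 CPM and the DEX values 37.8, 21.7, 30.6 and 39.1 CPM, with 35.1 CPM in the library left out. There 3 of 4 DEX libraries lay above all vehicle libraries, and the log2 fold change of 0.56 ± 0.24 did not pass (edgeR adjusted p = 0.173). Loaded minus unloaded, the DEX effects differed by 0.54 ± 0.33 on the log2 scale (edgeR adjusted p = 0.445). Mean vehicle levels were 22.2 ± 6.62 CPM unloaded and 16.8 ± 2.80 CPM loaded (log2 fold change of loading -0.44 ± 0.22; edgeR adjusted p = 0.522). Mean DEX levels were 32.3 ± 7.98 CPM unloaded and 36.0 ± 10.2 CPM loaded.

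Markers of neutrophils moved with Hsd11b1. All 7 neutrophil markers were detected in every library, and edgeR called 5 of 7 higher in unloaded and 6 of 7 higher in loaded tibiae, beside 2.86% and 12.9% of all genes. Their summed level ranged from 4836 to 7016 CPM in unloaded vehicle, 4155 to 6124 CPM in loaded vehicle, 8574 to 15672 CPM in unloaded DEX and 6857 to 16497 CPM in loaded DEX. Over the 20 libraries, the genes with a pattern of log2 CPM most like Hsd11b1 among 12966 genes with a mean of at least 5 CPM were Wfdc21 (Pearson r = 0.979) and Camp (r = 0.955), the latter a neutrophil granule gene and among the 7 summed markers. These libraries share treatment groups and depth, so r is a description. Per 1000 CPM of neutrophil markers, Hsd11b1 stood at 2.79 to 4.35 CPM in unloaded vehicle, 2.84 to 3.78 in loaded vehicle, 2.20 to 3.85 in unloaded DEX and 2.64 to 5.05 in loaded DEX, ranges that overlapped. The medians were 3.93, 2.97, 2.54 and 2.89 in the same order. Among DEX libraries the ratio was highest in loaded replicates 4 (5.05) and 1 (4.42) and unloaded replicate 1 (3.85). Those libraries were also highest in background reads, at 6494, 3085 and 2918 CPM. With background reads as a covariate, the log2 fold change in loaded tibiae was 0.48 (edgeR adjusted p = 0.555). The gene model also overlaps Lamb3 and an antisense transcript on the opposite strand, and whether counting used strand was not given. The part of neutrophils or of background reads in the rise of Hsd11b1 was not tested.

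**Figure D2:**
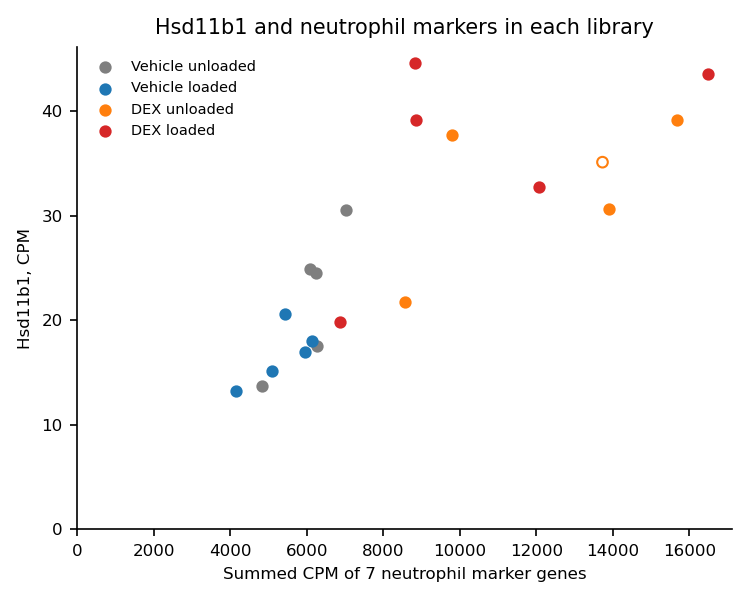
Hsd11b1 CPM against the summed CPM of 7 neutrophil markers, 1 point per library, coloured by group; the open point is the unloaded library of DEX replicate 4. The 10 vehicle libraries sit at 4155 to 7016 CPM of markers, and 9 of 10 DEX libraries lie to the right of all of them.

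Fkbp5, the feedback cochaperone (chr17:28399094-28517527, minus strand), rose with DEX in loaded bone by 1.83-fold and stood 1.76-fold above vehicle in unloaded bone, where it did not pass the test. In loaded vehicle its CPM was 69.7, 59.7, 63.9, 69.3 and 115, the last in the unnumbered library, and in loaded DEX it was 113, 152, 140, 125 and 139. All loaded DEX libraries lay above 4 of 5 vehicle libraries, and 4 of 5 lay above the unnumbered one as well. The mean rose from 75.5 ± 22.3 to 134 ± 15.1 CPM (SD, n = 5 each), a log2 fold change of 0.87 ± 0.17 (SE; 95% confidence interval 0.49 to 1.25; edgeR adjusted p = 0.00777). In unloaded vehicle it was 58.3, 47.3, 66.7, 71.5 and, in the unnumbered library, 108 CPM. In unloaded DEX it was 89.1, 120, 111 and 164 CPM, with 176 CPM in the library left out.

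In unloaded tibiae 3 of 4 tested DEX libraries lay above all vehicle libraries, and the log2 fold change was 0.81 ± 0.24 (95% confidence interval 0.30 to 1.33) with an edgeR adjusted p of 0.0603. The value passed in 9 of 18 alternatives. It was 1.02 (edgeR adjusted p = 0.0160) without the unnumbered vehicle library, 0.92 (0.0170) with all 20 libraries and 1.16 (0.00424) with background reads as a covariate. Of 9 fits that left out 1 library 2 passed, and the lowest values were 0.59 (0.152) without unloaded DEX replicate 5 and 0.69 (0.0840) without unloaded vehicle replicate 2. With background reads as a covariate the loaded value was 1.20 and no longer passed (edgeR adjusted p = 0.0881). The difference between the sides was 0.02 ± 0.32 on the log2 scale (95% confidence interval -0.64 to 0.68; edgeR adjusted p = 0.976). The genes with the most similar pattern over 20 libraries were Glul (r = 0.916), which makes glutamine, and Cebpd (r = 0.905), a transcription factor. Both are themselves glucocorticoid-induced genes and are counted below.

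Zbtb16 (chr9:48654297-48836222, minus strand), which encodes the zinc finger transcription factor PLZF that glucocorticoids induce in many cells, rose with DEX in loaded bone and did not pass the test in unloaded bone. In loaded vehicle its CPM was 37.7, 28.5, 28.4, 44.7 and 57.6, and in loaded DEX it was 80.4, 103, 82.4, 67.4 and 54.3. Of 5 loaded DEX libraries, 4 lay above all vehicle libraries. The mean rose from 39.4 ± 12.3 to 77.5 ± 18.1 CPM (SD, n = 5 each), a log2 fold change of 1.01 ± 0.21 (SE; 95% confidence interval 0.55 to 1.47; edgeR adjusted p = 0.00930). In unloaded bone the values were 68.9, 46.2, 53.6, 71.2 and 69.4 CPM in vehicle and 52.0, 57.3, 45.0 and 76.6 CPM in DEX, with 67.3 CPM in the library left out. They overlapped throughout, and the log2 fold change was -0.07 ± 0.19 (edgeR adjusted p = 0.836). With background reads as a covariate the loaded value was 1.28 and no longer passed (edgeR adjusted p = 0.141), and it passed in the other 18 of 19 alternatives.

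**Figure D3:**
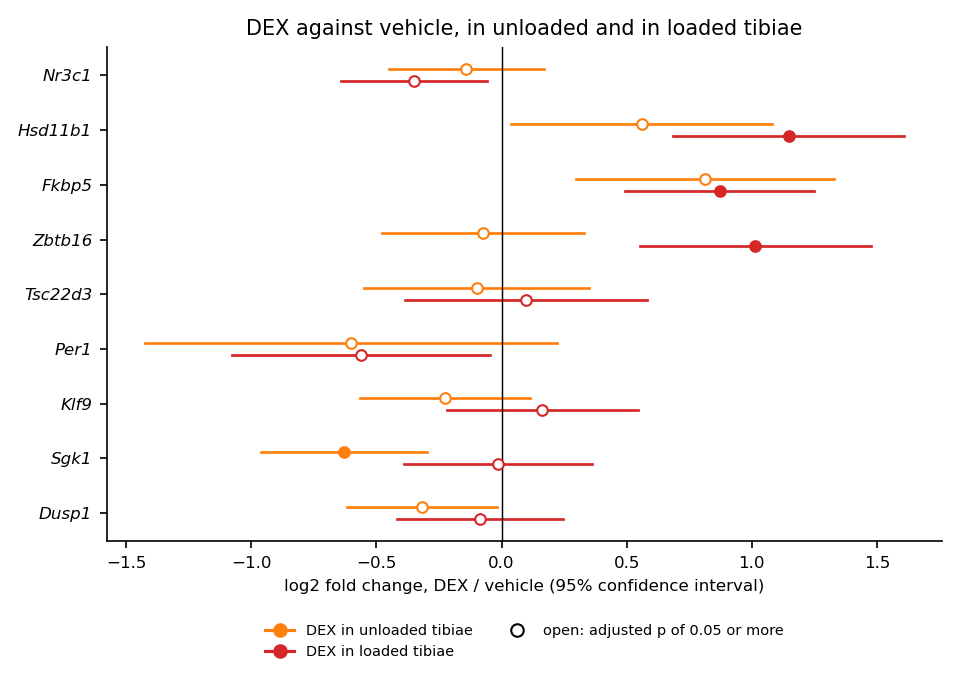
Log2 fold change of DEX against vehicle for the 9 genes, in unloaded (orange) and loaded (red) tibiae, with 95% confidence intervals; filled points have an edgeR adjusted p under 0.05. The filled points are Hsd11b1 (1.15), Fkbp5 (0.87) and Zbtb16 (1.01) in loaded bone and Sgk1 (-0.63) in unloaded bone.

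Tsc22d3 (chrX:140539528-140600659, minus strand), which encodes GILZ, an anti-inflammatory leucine zipper protein and one of the best known receptor targets, was not called. It ranged from 66.5 to 147 CPM (median 102) in unloaded vehicle, 68.1 to 119 CPM (median 75.7) in loaded vehicle, 81.1 to 104 CPM in the 4 tested unloaded DEX libraries with 111 CPM in the one left out, and 46.8 to 120 CPM (median 86.4) in loaded DEX. The groups overlapped on both sides. The log2 fold change was -0.10 ± 0.21 (95% confidence interval -0.55 to 0.35; edgeR adjusted p = 0.798) in unloaded and 0.10 ± 0.22 (-0.39 to 0.58; edgeR adjusted p = 0.774) in loaded bone, and with background reads as a covariate the values were 0.24 and 0.64, neither called. The unnumbered library was highest in both vehicle groups, and without it the unloaded value turned to 0.07 and the loaded value was 0.20.

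Per1 (chr11:69095217-69109960, plus strand), a clock repressor that DEX induces acutely, also stood no higher. It ranged from 28.4 to 129 CPM (median 49.6) in unloaded vehicle and from 47.9 to 108 CPM (median 53.2) in loaded vehicle, with the unnumbered library highest on both sides. In DEX it ranged from 30.3 to 50.7 CPM in the 4 tested unloaded libraries, with 57.6 CPM in the one left out, and from 32.3 to 64.0 CPM (median 39.1) in loaded bone. Of 5 loaded DEX libraries, 4 lay below every loaded vehicle library. The log2 fold change was -0.60 ± 0.38 (edgeR adjusted p = 0.347) in unloaded and -0.56 ± 0.24 (edgeR adjusted p = 0.107) in loaded bone. The loaded value passed in 2 of 19 alternatives, without a filter on low counts (-0.73, edgeR adjusted p = 0.0365) and without loaded DEX replicate 2 (-0.77, edgeR adjusted p = 0.0317), and it was -0.13 with background reads as a covariate. In unloaded bone it was -0.21 without the unnumbered vehicle library and turned to 0.20 with the covariate, not called in either. Its closest pattern was that of Sik1 (r = 0.862), a kinase gene that follows cAMP signals.

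Klf9 (chr19:23141226-23168134, plus strand), a Krüppel-like factor that mediates feedforward steps of the glucocorticoid response, showed no shift past the spread. Its range was 36.6 to 55.5 CPM in unloaded vehicle, 27.9 to 50.4 CPM in loaded vehicle, 31.4 to 44.5 CPM in unloaded DEX and 32.1 to 51.4 CPM in loaded DEX. The log2 fold change was -0.23 ± 0.16 (edgeR adjusted p = 0.392) in unloaded and 0.16 ± 0.18 (edgeR adjusted p = 0.521) in loaded bone. These were -0.04 and 0.53 with background reads as a covariate, and -0.13 and 0.28 without the unnumbered library, which was highest in both vehicle groups, with none called. Dusp1 (chr17:26505590-26562128, minus strand), a phosphatase that switches off MAP kinases, ranged from 23.4 to 31.3 CPM in unloaded vehicle and 21.6 to 27.3 CPM in loaded vehicle, and from 19.1 to 38.4 CPM in unloaded DEX, where the library left out was highest, and 15.8 to 28.9 CPM in loaded DEX. Its log2 fold change was -0.32 ± 0.14 (edgeR adjusted p = 0.178) in unloaded and -0.09 ± 0.15 (edgeR adjusted p = 0.708) in loaded bone, and -0.13 (edgeR adjusted p = 0.652) in unloaded bone with all 20 libraries. The Dusp1 gene model overlaps Ergic1 on the opposite strand.

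Sgk1 (chr10:21882184-21999903, plus strand), a kinase that controls sodium channels and cell survival, moved against its classical direction in unloaded bone. Its CPM was 40.4, 43.9, 33.2, 44.2 and 32.1 in unloaded vehicle and 21.8, 24.8, 24.2 and 28.1 in unloaded DEX, with 30.9 in the library left out. Every DEX library, the one left out included, lay below every vehicle library. Over all genes tested there, 10.8% had tested libraries that did not overlap, in either direction. The mean fell from 38.8 ± 5.78 (SD, n = 5) to 24.7 ± 2.58 CPM (n = 4), a log2 fold change of -0.63 ± 0.15 (SE; 95% confidence interval -0.96 to -0.30; edgeR adjusted p = 0.0318). The call was lost without unloaded DEX replicate 1, 2 or 3 or unloaded vehicle replicate 5 (edgeR adjusted p from 0.0581 to 0.118), while the value stayed between -0.73 and -0.56. In loaded bone the values were 44.7, 28.9, 29.9, 38.0 and 52.4 CPM in vehicle and 34.1, 47.5, 32.7, 38.9 and 33.3 CPM in DEX. These overlapped, and the log2 fold change was -0.01 ± 0.17 (edgeR adjusted p = 0.960).

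Loading by itself moved none of the 9 genes past the threshold. In vehicle, edgeR called 0 of 17982 genes (0%), with 1773 at an unadjusted p under 0.05, and DESeq2 called 141 (0.784%), none of them among the 9. In DEX it called 0 of 22541 (0%), with 958 at an unadjusted p under 0.05, and DESeq2 called 0. For the difference between the DEX effects of the unloaded and loaded sides, edgeR called 0 of 23653 (0%), with 2859 at an unadjusted p under 0.05, and DESeq2 called 50 (0.211%), none among the 9. Without unloaded DEX replicate 5, edgeR called 39 genes for loading in DEX and 54 for the difference, with 0 of the 9 among them. Of the 9 genes, 1, 1 and 2 had an unadjusted p under 0.05 in these comparisons.

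Those were Zbtb16 and Sgk1. Zbtb16 went from 61.9 ± 11.3 to 39.4 ± 12.3 CPM with loading in vehicle (log2 fold change -0.68 ± 0.20; edgeR unadjusted p = 0.00491, adjusted p = 0.341) and from 57.7 ± 13.6 to 77.5 ± 18.1 CPM with loading in DEX (0.39 ± 0.22; edgeR adjusted p = 0.733). The difference of the DEX effects, loaded minus unloaded, was 1.05 ± 0.31 (edgeR unadjusted p = 0.00280, adjusted p = 0.359). In loaded bone the vehicle mean of Zbtb16 lay lower and the DEX mean higher than in unloaded bone, and neither difference was called. Sgk1 was 38.8 CPM in both vehicle groups, and in DEX it stood at 24.7 ± 2.58 CPM unloaded and 37.3 ± 6.22 CPM loaded, with all 5 loaded libraries above all 4 unloaded ones (log2 fold change 0.56 ± 0.16; edgeR unadjusted p = 0.00417, adjusted p = 0.733). Its difference of DEX effects was 0.57 ± 0.25 (edgeR unadjusted p = 0.0309, adjusted p = 0.401).

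Summed skeletal muscle markers, like Zbtb16, had a lower median with loading in vehicle and a higher one with loading in DEX. Sgk1 shared the second of these directions and had equal means in the vehicle groups, and with DEX in unloaded bone the median of the marker sum and Sgk1 were lower while Zbtb16 was not called. The marker sums ranged from 8111 to 36377 CPM (median 28880) in unloaded vehicle, 3850 to 19017 CPM (median 9911) in loaded vehicle, 1461 to 16789 CPM (median 2769) in unloaded DEX and 7358 to 21160 CPM (median 15556) in loaded DEX. All 6 muscle markers were detected in every library, and edgeR called 1 of 6 lower with DEX in unloaded and 1 of 6 higher with DEX in loaded bone, beside 3.99% of all genes lower and 12.9% higher. Their part in the values of Zbtb16 and Sgk1 was not tested.

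**Figure D4:**
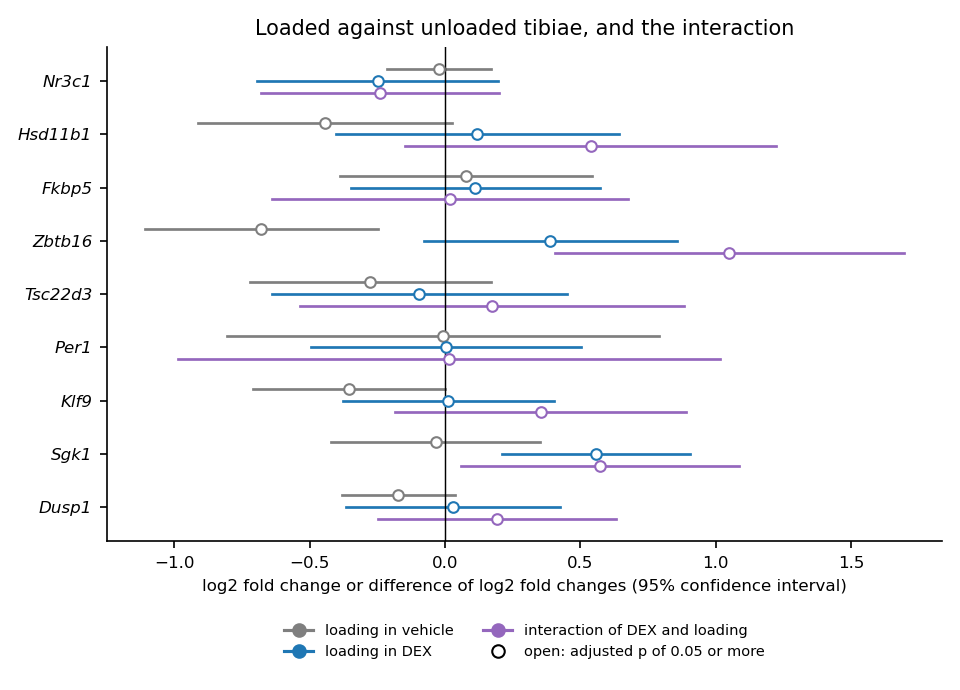
Log2 fold change of loaded against unloaded tibiae in vehicle (grey) and DEX (blue), and the difference of the DEX effects between the sides (purple), for the 9 genes with 95% confidence intervals; all points are open since none had an edgeR adjusted p under 0.05. The purple intervals of Zbtb16 (1.05) and Sgk1 (0.57) lie above 0.

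The order of the levels per kilobase placed the receptor near the top of the set and Hsd11b1 at the bottom in vehicle bone. In unloaded vehicle the mean level in CPM per kilobase was 23.5 ± 7.48 for Tsc22d3, 16.6 ± 1.81 for Nr3c1, 11.7 ± 7.40 for Per1, 11.7 ± 2.13 for Zbtb16, 9.23 ± 1.76 for Klf9, 8.42 ± 0.848 for Dusp1, 7.91 ± 1.18 for Sgk1, 7.42 ± 2.41 for Fkbp5 and 5.23 ± 1.56 for Hsd11b1. The ranges of mean ± SD overlapped for each pair of neighbours in this order. In loaded DEX Tsc22d3 still led at 20.5 ± 6.63, followed by Zbtb16 at 14.7 ± 3.44, Fkbp5 at 14.1 ± 1.59 and Nr3c1 at 12.7 ± 2.23, with Dusp1 last at 6.96 ± 1.57 and neighbours again overlapped in mean ± SD. The neighbours that did not overlap were Tsc22d3 above Nr3c1 in unloaded DEX and Klf9 above Hsd11b1 in loaded vehicle.

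Of 28 other genes that glucocorticoids are known to induce, all tested, most were not called on either side. In unloaded tibiae edgeR called 7 higher and 1 lower and 20 not, beside 2.86% higher and 3.99% lower over all genes. In loaded tibiae it called 9 higher and 4 lower and 15 not, beside 12.9% and 8.35% over all genes. Of the 28, 18 lay in the best expressed part of all genes, for which the calls are given above. The medians were 0.17 and 0.24 on the log2 scale, beside 0.03 and 0.0040 over all genes. DESeq2 called 9 higher and 3 lower in unloaded and 9 higher and 4 lower in loaded tibiae. Over all genes it called 939 higher and 1472 lower of 19738 in unloaded, and 3468 higher and 2183 lower of 19780 in loaded tibiae. With background reads as a covariate edgeR called 9 higher in unloaded and 0 in loaded tibiae, with 11 at an unadjusted p under 0.05. Over all genes that fit called 1502 of 19738 higher in unloaded and 4 of 19780 higher in loaded tibiae. The list was chosen with earlier results of these data known and is not independent evidence of its direction.

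The largest rise among the 28 on both sides was that of Il1r2, the decoy receptor for interleukin-1, with log2 fold changes of 2.31 ± 0.27 (edgeR adjusted p = 0.00386) in unloaded and 2.35 ± 0.38 (edgeR adjusted p = 0.00254) in loaded bone. In unloaded bone it was followed by Mt2, a metallothionein that binds zinc, at 1.62 ± 0.39 and Lcn2, a siderophore-binding protein of neutrophil granules, at 1.32 ± 0.26 (edgeR adjusted p = 0.0302 and 0.0160). In loaded bone it was followed by Fam107a, a stress-induced actin-binding protein, at 2.05 ± 0.34 and Hif3a, a hypoxia-inducible factor subunit, at 1.80 ± 0.35 (edgeR adjusted p = 0.00300 and 0.00720). Il1r2 and Lcn2 are also known to be expressed in neutrophils, whose summed markers are given above.

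Members of the same list fell as well. Cdkn1a, the cell cycle inhibitor p21, fell in unloaded bone by 0.96 on the log2 scale (SE 0.24; edgeR adjusted p = 0.0349). In loaded bone the 3 largest falls were those of Angptl4, an inhibitor of lipoprotein lipase, at -1.23 ± 0.30, Ddit4, an inhibitor of mTOR signalling, at -1.09 ± 0.26, and Cdkn1a at -0.87 ± 0.19 (edgeR adjusted p = 0.0165, 0.0137 and 0.0112). The values of Ddit4 were of the same sign in unloaded bone, -1.39 ± 0.41, without passing (edgeR adjusted p = 0.0617).

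**Figure D5:**
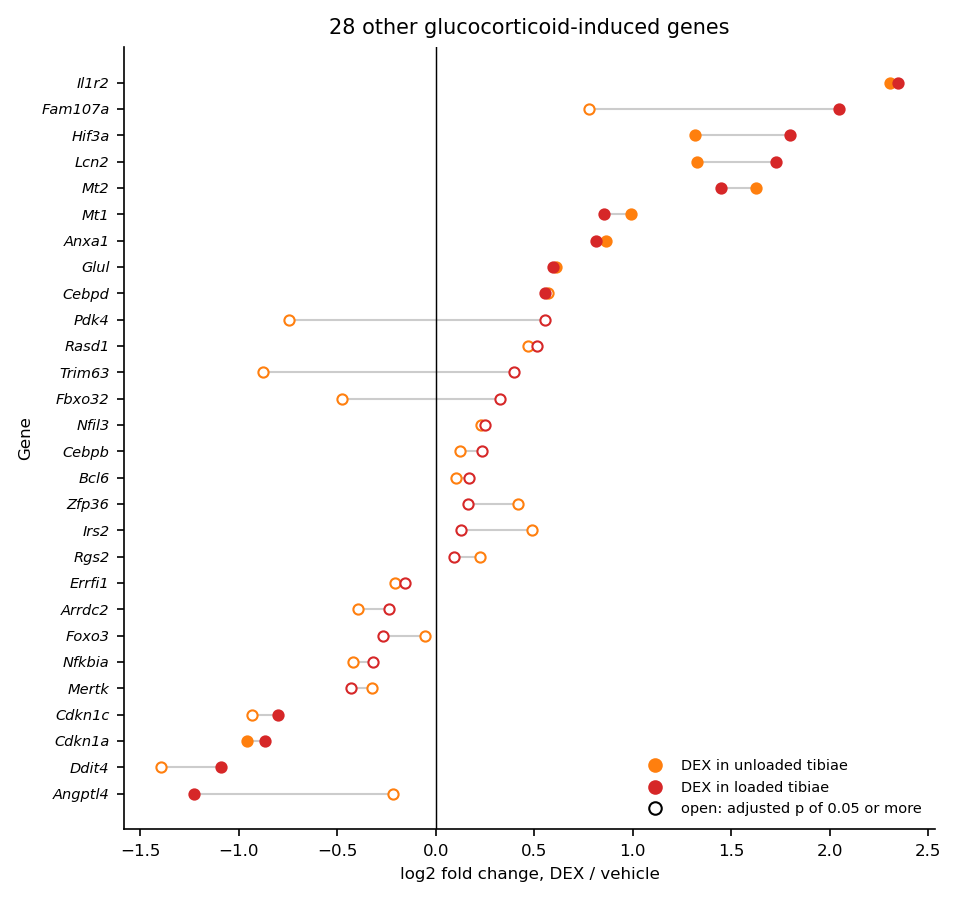
Log2 fold change of DEX against vehicle for 28 other glucocorticoid-induced genes, in unloaded (orange) and loaded (red) tibiae, with a grey line joining the pair; filled points have an edgeR adjusted p under 0.05. Filled points above 0 number 7 and 9, and filled points below 0 number 1 and 4, in unloaded and loaded bone.

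Genes that glucocorticoids are known to repress did not move as a block. Of 10, 7 were tested in unloaded and 8 in loaded tibiae, and Il6 and Il11 were too low to test on either side. In unloaded bone edgeR called 2 higher and 1 lower, beside 2.86% and 3.99% of all genes. Those were Tnf, an inflammatory cytokine, at 1.20 ± 0.31, Mmp9, a gelatinase of osteoclasts and neutrophils, at 0.96 ± 0.23, and Bglap, which encodes osteocalcin, at -2.95 ± 0.53 (edgeR adjusted p = 0.0394, 0.0292 and 0.0121). In loaded bone, where 8.35% of all genes were called lower, 2 were called lower, Bglap at -3.47 ± 0.55 and Ptgs2, the inducible cyclooxygenase, at -1.89 ± 0.44 (edgeR adjusted p = 0.00252 and 0.0136). Of the 8 osteoblast markers, Bglap among them, 5 were called lower in unloaded and 7 in loaded bone, beside 3.99% and 8.35% of all genes. Their sum ranged from 41157 to 144646 CPM in unloaded vehicle and 63537 to 95033 CPM in loaded vehicle, and from 6175 to 35211 CPM in unloaded DEX and 4608 to 23064 CPM in loaded DEX.

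Of 16 paralogs of the 9 genes 15 were tested, and edgeR called 1 higher and 2 lower in unloaded and 2 higher and 1 lower in loaded tibiae, beside 6.84% and 21.3% of all genes in either direction, so the loaded share was near that of all genes. Per3, the third period gene, rose on both sides while Per1 did not pass, with log2 fold changes of 0.65 ± 0.16 (edgeR adjusted p = 0.0342) in unloaded and 0.77 ± 0.16 (edgeR adjusted p = 0.00962) in loaded bone. Tsc22d1, a relative of GILZ, fell on both sides, at -1.03 ± 0.16 (edgeR adjusted p = 0.00838) and -0.85 ± 0.18 (edgeR adjusted p = 0.00920). Klf15, a Krüppel-like factor of amino acid metabolism, rose in loaded bone with a log2 fold change of 1.38 ± 0.29 (edgeR adjusted p = 0.00932), and Dusp5, a phosphatase of nuclear ERK, fell in unloaded bone at -0.96 ± 0.26 (edgeR adjusted p = 0.0486).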

How the data were processed

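Per the labels, total RNA from pulverised tibiae was made into libraries with a stranded total RNA kit, and the submitters' processing notes name STAR 2.7.10a, RSEM 1.2.28 and GRCm38. The deposited table holds the authors' RSEM expected counts for 54446 genes, which were rounded to whole numbers here. Gene identifiers were matched to the GENCODE annotation of GRCm38. Each pair of groups was fitted over all genes with edgeR 4.0.16 in R 4.3.3 (default expression filter, TMM scaling, quasi-likelihood F test, Benjamini-Hochberg adjustment, threshold 0.05), without the unloaded library of DEX replicate 4. DESeq2 1.42.0 was an alternative. SEs were derived from log2 fold change and F. CPM was TMM-scaled over 20 libraries, with a prior count of 2 for log2 values. Totals of 4641437 to 13032018 counts per library limit the precision. The fits were tested on counts simulated with the same spread setting for all genes and no difference in background reads between libraries. That test does not address the background reads or single libraries of these data. All 9 genes are described in every comparison, with, from each further list, at most the 3 called genes per direction of largest change and the 2 most alike genes by Pearson r of log2 CPM. The genes most alike to Sgk1 are not reported here. The genes and lists were chosen with earlier results of these data known. Alternatives covered scaling, filters, a replicate block, left-out libraries, 1 model for all groups and a covariate for background reads.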

Additional observations from a re-analysis of the deposited data

Results flagged for a closer look

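Of 36 groups of 5 libraries tested with Dixon's criterion, 9 genes in 4 groups each, 2 held a library far from the others, where chance gives about 1 in 20. Nr3c1 stood at 88.5 CPM in unloaded DEX replicate 1, against 116 CPM in the next lowest library of that group. Fkbp5 stood at 115 CPM in the unnumbered loaded vehicle library, against 69.7 CPM in the next highest. For none of the 9 genes did the difference of the DEX effects between loaded and unloaded tibiae pass the test of edgeR or DESeq2.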

How the results depend on the processing

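In unloaded tibiae, 1 of the 9 genes was called, and 2 were called with DESeq2, with at least 10 counts in every library, in 1 model for all groups, with all 20 libraries, with the covariate for background reads and over the numbered libraries without the block (Fkbp5 and Sgk1). Leaving out 1 library gave 0 to 2. In loaded tibiae 3 were called, 4 with DESeq2 or in 1 model for all groups (adding Nr3c1) or without a filter (adding Per1), and 0 with the covariate. The covariate was itself higher in DEX than in vehicle, so DEX and background reads cannot be told apart there. Leaving out 1 library kept Hsd11b1, Fkbp5 and Zbtb16 called in loaded tibiae in each case, with 3 to 4 genes called. The cause of these changes was not tested. No gene of the 9 was called under any alternative for loading or for the difference of DEX effects.

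Correlations of the deviations of same-numbered libraries ran from -0.30 to 0.25 between vehicle limbs, 0.030 to 0.36 between DEX limbs and -0.23 to 0.47 between treatments, and not every library correlated best with its own number, so the numbers were not taken to pair libraries. With the replicate block, 1 gene was called in unloaded tibiae (Fkbp5, log2 fold change 1.06, edgeR adjusted p = 0.0369, while Sgk1 had 0.0508) and 3 in loaded tibiae. Over all genes the block changed the calls from 566 to 520 in unloaded and from 1120 to 2326 in loaded tibiae. Without a filter on low counts, the median log2 fold change of all genes moved to 0.20 in unloaded and 0.77 in loaded tibiae, with 487 genes higher and 1146 lower against 564 and 787, and 6817 and 2199 against 2554 and 1652. Called genes in unloaded tibiae numbered 2411 with DESeq2, 2922 with all 20 libraries and 2657 with the covariate, against 1351, with 1502 higher and 1155 lower in the last and 481 and 1116 in 1 model for all groups, and in loaded tibiae 8446 in 1 model for all groups, 2203 with at least 10 counts and 31 with the covariate, against 4206. For loading in vehicle the count over all genes was 50 without a filter, 4 in 1 model and 141 with DESeq2 against 0, and for the difference of DEX effects 1 without a filter and 50 with DESeq2 against 0.

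Signs turned for values that no fit called, on the log2 scale. For DEX in unloaded tibiae these were, with the covariate, Nr3c1 0.0019, Tsc22d3 0.24, Per1 0.20 and Zbtb16 0.032, with the block Tsc22d3 0.18, Per1 0.18, Zbtb16 0.0072 and Klf9 0.038, and over the same libraries without it 0.17, 0.19, 0.015 and 0.043. For DEX in loaded tibiae they were Tsc22d3 -0.056 and Klf9 -0.023 without a filter, Sgk1 0.098 and Dusp1 0.027 with at least 10 counts, and Sgk1 0.13 with the block, 0.12 without it and 0.23 with the covariate. For loading in vehicle they were Nr3c1 0.021, Per1 0.016 and Sgk1 0.025 without a filter, Nr3c1 0.0072 and Per1 0.22 with the block, 0.0043 and 0.13 without it, and Fkbp5 -0.11 with the covariate. For loading in DEX they were Hsd11b1 -0.024 and Tsc22d3 0.15 with the covariate, Fkbp5 -0.0055, Per1 -0.087 and Dusp1 -0.17 with all 20 libraries, Tsc22d3 0.075 and Dusp1 -0.0073 with the block and Tsc22d3 0.084 without it or without both libraries of DEX replicate 4. There, Tsc22d3 was 0.025 and Dusp1 -0.20 with the loaded library of replicate 4 left out instead, Per1 was -0.016 with DESeq2's test or size factors and Klf9 -0.0076 and -0.0078, and without a filter Per1 was -0.065, Dusp1 -0.058 and Klf9 -0.059. For the difference of DEX effects they were Nr3c1 0.028 with the covariate, Fkbp5 -0.038 and Per1 -0.031 without a filter, Fkbp5 -0.083 and Per1 -0.071 with all 20 libraries, Fkbp5 -0.059 and Dusp1 -0.035 with the loaded library left out, and Per1 -0.12 with the block and -0.023 without it.

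Leaving out 1 library gave ranges across 0 for DEX in unloaded tibiae of -0.22 to 0.068 (Tsc22d3) and -0.29 to 0.026 (Zbtb16), and for DEX in loaded tibiae of -0.059 to 0.25 (Tsc22d3), -0.15 to 0.068 (Sgk1) and -0.21 to 0.012 (Dusp1). For loading in vehicle they were -0.066 to 0.025 (Nr3c1), -0.11 to 0.27 (Fkbp5), -0.24 to 0.37 (Per1) and -0.16 to 0.063 (Sgk1). For loading in DEX they were -0.050 to 0.28 (Hsd11b1), -0.026 to 0.31 (Fkbp5), -0.22 to 0.084 (Tsc22d3), -0.17 to 0.12 (Per1), -0.060 to 0.14 (Dusp1) and -0.11 to 0.095 (Klf9), and for the difference of DEX effects -0.18 to 0.22 (Fkbp5) and -0.37 to 0.26 (Per1). Leaving out both libraries of DEX replicate 4 equals the reported fit for unloaded tibiae, and all 20 libraries equals it for loaded tibiae and for loading in vehicle.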

Other observations

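The genes whose log2 CPM followed 6 of the other genes most closely over the 20 libraries, among 12966 genes, are given as a description, since the libraries share treatment groups and depth. Nr3c1 was followed by Tial1 (Pearson r = 0.948) and Morf4l1 (0.940), the highest values after those of Hsd11b1. Tsc22d3 was followed by Gm44249 (0.877) and Txnip (0.845), a thioredoxin-binding protein, and Per1, after Sik1, by Pik3ip1 (0.829). Zbtb16 was followed by Lims2 (0.833) and Map3k6 (0.830), Dusp1 by Errfi1 (0.774), an inhibitor of EGF receptor signalling, and Cep295nl (0.761), and Klf9 by Klhl8 (0.744) and Sorbs3 (0.742).

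B cell markers were summed in the same libraries. They ranged from 269 to 703 CPM in unloaded vehicle, 255 to 914 CPM in loaded vehicle, 125 to 298 CPM in unloaded DEX and 67.9 to 227 CPM in loaded DEX, so that the loaded groups did not overlap and the unloaded groups did.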
